A study of Mus musculus with 2 samples.

Results

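The olfactory receptor genes of chromosome 9 were described in ATAC-seq peak lists of the mouse organ of Corti, the sensory epithelium of the cochlea. The members were the protein-coding genes of GENCODE vM21 (GRCm38) on chromosome 9 whose symbol begins with Olfr and a number. There were 132 of them among 21938 protein-coding genes. They include *Olfr839-ps1*, *Olfr896-ps1* and *Olfr911-ps1*, which carry a pseudogene suffix in the symbol but are annotated as protein-coding. The rule used no measured value. ATAC-seq detects open chromatin, because the transposase Tn5 inserts adapters more readily into accessible DNA. The data consist of 1 list for WT mice and 1 for Bmi1-/- mice, each from 1 library of pooled organs of Corti at P2. Both genotypes were littermates from matings of Bmi1+/− mice backcrossed to C57BL/6 J, and the null allele was not limited to a cell type. Bmi1 is a subunit of Polycomb repressive complex 1. With 1 library per genotype there was no replicate, and no difference between the genotypes could be tested. The peak names inside the WT-labelled list carry the prefix of the knockout and those inside the list labelled Bmi1-/- carry that of the WT, so every direction given here rests on the GEO labels.

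Olfactory receptors are G protein-coupled receptors that odorants bind in the sensory neurons of the nose, where each mature neuron expresses a single allele of a single receptor gene. The genes lie in clusters, their coding sequence is usually a single exon, and in the nose most of them are kept silent in compact heterochromatin. Their promoters are known to be AT-rich, with motifs of homeodomain factors such as *Lhx2* and of the O/E (EBF) factors. The organ of Corti holds hair cells and supporting cells, which are not known to use these receptors for smell.

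The 132 genes formed 2 clusters 17.4 Mb apart. Cluster 1 held 37 genes from *Olfr24* to *Olfr18* in chr9:18751507-20346094, and cluster 2 held 95 genes from *Olfr160* to *Olfr986* in chr9:37708964-40190134. The gene bodies had a median length of 5480 bp and ranged from 930 to 26047 bp. A gene region, defined as the gene body plus 10 kb upstream, was counted for each gene. Merged, these regions covered 2.02 Mb, or 1.67% of the chromosome, and the windows within 3 kb of a transcription start site (TSS), called promoters here, covered 1.06 Mb.

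The sequences of 3 promoters show the difference in base composition between these genes and a gene used in the organ of Corti. *Olfr872* was the only member with overlapping promoter peaks in both lists, and *Olfr943* had the longest region among the members without a peak. *Myo6*, which encodes a myosin of hair cells, had the strongest promoter peak among the hair cell markers. Each line gives bases upstream of the RefSeq start on the plus strand of GRCm38, without annotated UTR bases, 5′ to 3′, and capitals mark CpG dinucleotides.
*Olfr872* promoter, chr9:20236912-20237118: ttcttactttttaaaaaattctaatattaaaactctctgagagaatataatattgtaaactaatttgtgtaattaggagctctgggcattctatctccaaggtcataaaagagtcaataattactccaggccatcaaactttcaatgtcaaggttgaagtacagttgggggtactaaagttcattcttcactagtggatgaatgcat
*Olfr943* promoter, chr9:39166060-39166303: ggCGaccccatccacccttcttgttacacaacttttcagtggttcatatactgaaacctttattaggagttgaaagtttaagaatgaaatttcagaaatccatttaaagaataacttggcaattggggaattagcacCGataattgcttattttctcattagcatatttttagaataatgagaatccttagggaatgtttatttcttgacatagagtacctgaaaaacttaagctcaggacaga
*Myo6* promoter, chr9:80164784-80165030: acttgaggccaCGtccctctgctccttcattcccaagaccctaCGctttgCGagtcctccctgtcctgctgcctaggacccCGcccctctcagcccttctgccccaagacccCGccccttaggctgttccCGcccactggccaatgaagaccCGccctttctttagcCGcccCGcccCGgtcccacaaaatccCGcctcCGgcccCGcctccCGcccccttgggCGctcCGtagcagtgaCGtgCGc

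The stretch of *Olfr872* held no CpG and had a GC content of 32.4%, that of *Olfr943* held 2 with 34.0%, and that of *Myo6* held 18 with 67.6%. RefSeq promoters of 300 bases, from 250 before to 50 after the start, were matched for 109 of the 132 members and gave 110 promoters. Their median GC content was 34.0%, with a range from 24.7% to 50%, against a median of 58.5% over 1076 promoters of other genes of chromosome 9. The members had a median of 1 CpG and at most 8, whereas the other promoters had a median of 17. At least 10 CpG were found in 0 of the 110 promoters and in 67.2% of the other promoters. The AT-rich words searched on both strands were also more frequent in the members. TAATTA, the core of many homeodomain sites, was present in 28 of 110 promoters (25.5%), in 2.97% of the other promoters of chromosome 9 and in 4.48% of all promoters. TATAAA was present in 49 of 110 (44.5%) against 9.20% and 12.2%. The GC-rich CCCNNGGG, a core of O/E sites, went the other way, with 2 of 110 (1.82%) against 15.9% and 16.03%. The promoters of olfactory receptors on other chromosomes were alike, with a median GC content of 35.3% and a median of 1 CpG. There TAATTA was present in 17.7%, TATAAA in 40.6% and CCCNNGGG in 3.15%. Short words of A and T are more frequent in AT-rich sequence, and a match is not evidence of binding.

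**Figure D1:**
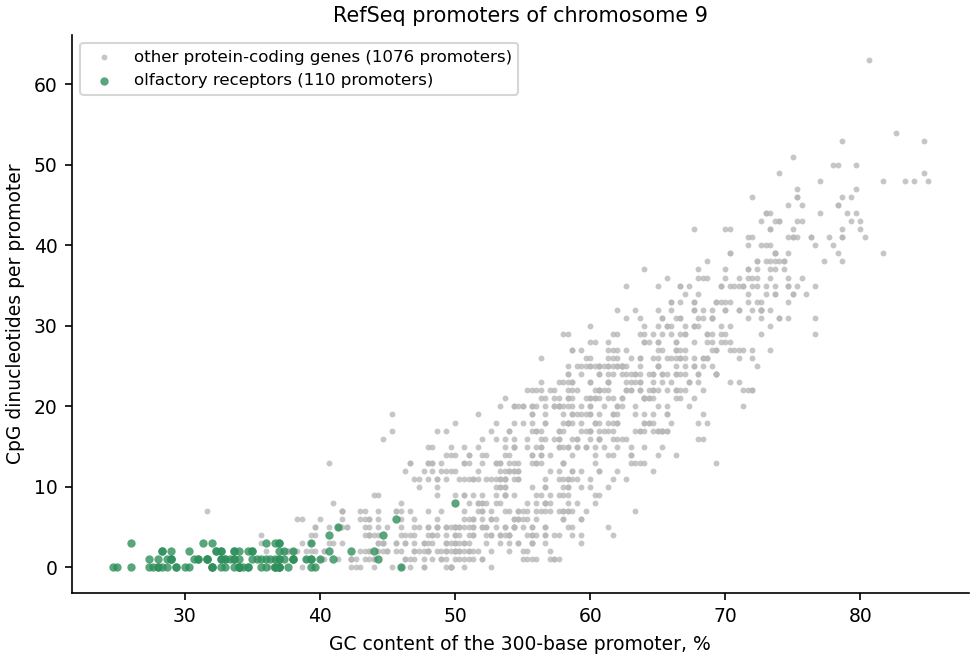
GC content in percent (x axis) against the number of CpG dinucleotides (y axis) of the 300-base RefSeq promoters of chromosome 9, 1 point per promoter. The 110 promoters of olfactory receptors (green) lie between 24.7% and 50% GC with at most 8 CpG, at the lower left of the 1076 promoters of other protein-coding genes (grey).

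The lists contained 77596 peaks labelled WT and 100431 labelled Bmi1-/- on the assembled chromosomes, of which 4333 and 5585 lay on chromosome 9. They reached down to a −log10 p of about 2, and 53.4% and 63.0% of the peaks on chromosome 9 had a q-value below 0.05. The lists give no read totals. The commonest local background at a summit, 6.32 reads in the WT-labelled list and 8.04 in the list labelled Bmi1-/-, stands for depth and was higher in the latter.

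Few peaks lay in the olfactory receptor regions of either list. In the WT-labelled list, 9 peaks were centred there, which gives 4.46 peaks per Mb (95% Poisson interval 2.04 to 8.47), against 36.3 per Mb (35.2 to 37.4) in the rest of chromosome 9. The density was thus 0.123 times that of the rest (exact interval 0.0562 to 0.234), or 8.14-fold lower. In the list labelled Bmi1-/-, 19 peaks gave 9.41 per Mb (5.67 to 14.7) against 46.7 per Mb (45.5 to 48.0), a ratio of 0.202 (0.121 to 0.315), or 4.96-fold lower. Both intervals end well below a ratio of 1. Intervals here and below cover counting error only.

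The promoter density was below that of the regions in the WT-labelled list and above it in the list labelled Bmi1-/-. The intervals of promoters and regions overlap in both lists. In the WT-labelled list, 2 peaks were within 3 kb of a member's TSS, or 1.89 per Mb (0.229 to 6.84). The ratio to the rest of the chromosome was 0.0525 (0.00636 to 0.190). In the list labelled Bmi1-/-, 12 promoter peaks gave 11.4 per Mb (5.87 to 19.8) and a ratio of 0.245 (0.126 to 0.428). Of these 12 peaks, 5 were centred in the coding exon of a receptor, 357 to 754 bp downstream of the nearest TSS. The promoters of other protein-coding genes of chromosome 9 were denser than the chromosome as a whole, with 89.9 and 117.9 peaks per Mb. Against these promoters the members' ratio was 0.0211 (0.00255 to 0.0762) in the WT-labelled list and 0.0964 (0.0497 to 0.169) in the list labelled Bmi1-/-.

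DNA outside gene regions also held more peaks than the members. Outside every gene region chromosome 9 had 24.2 and 32.7 peaks per Mb, and the members' regions stood at 0.184 (0.0841 to 0.351) and 0.288 (0.173 to 0.451) times these values. Between the olfactory receptor genes, inside the clusters, there were 13 and 18 peaks, or 6.61 (3.52 to 11.3) and 9.15 (5.42 to 14.5) per Mb. The ratio of the regions to these stretches was 0.675 (0.255 to 1.71) and 1.03 (0.511 to 2.08), so a difference between genes and the DNA between them was not detectable at these counts.

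**Figure D2:**
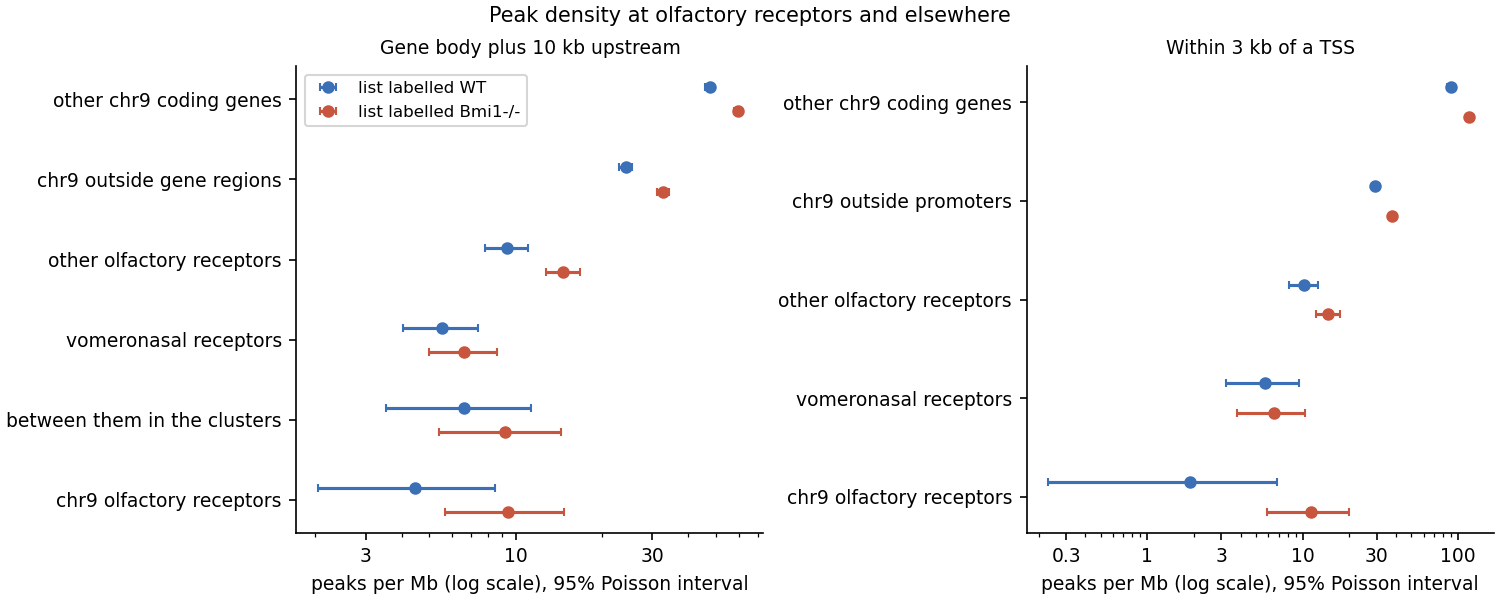
Peaks per Mb (x axis, log scale) with exact 95% Poisson intervals in gene regions (left) and promoters (right), for the lists labelled WT (blue) and Bmi1-/- (red). The olfactory receptor regions of chromosome 9 lie at 4.46 and 9.41 peaks per Mb, below chromosome 9 outside gene regions at 24.2 and 32.7.

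Other chemoreceptor families had densities of the same order. The 1003 olfactory receptor genes on other chromosomes had 9.35 (7.85 to 11.1) and 14.7 (12.8 to 16.8) region peaks per Mb, and the 329 vomeronasal receptor genes, which serve the detection of pheromones, had 5.53 (4.05 to 7.38) and 6.61 (4.98 to 8.61). In promoters the olfactory receptors elsewhere had 10.2 (8.21 to 12.5) and 14.6 (12.2 to 17.3) peaks per Mb. Only in the WT-labelled list did the interval of the chromosome 9 promoters, 0.229 to 6.84, end below that of the family elsewhere. No test of this difference was made.

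Along the chromosome, cluster 2 was a gap in the peak profile, with a denser flank on each side, and cluster 1 was part of a longer sparse stretch that ended at its right edge. Cluster 1 held 9 and 17 peaks in its whole span, and cluster 2 held 13 and 21, in the lists labelled WT and Bmi1-/-. These counts gave 5.64 (2.58 to 10.7) and 10.7 (6.21 to 17.1) peaks per Mb in the span of cluster 1, and 5.24 (2.79 to 8.96) and 8.46 (5.24 to 12.9) in that of cluster 2. The 1 Mb to the left of cluster 1 held 7 and 16 peaks per Mb, with intervals of 2.81 to 14.4 and 9.14 to 26.0 that overlap those of the cluster, while the 1 Mb to its right held 72 and 103. Around cluster 2 the left flank held 53 and 77 peaks per Mb and the right flank 73 and 85. The member regions of cluster 1 had 8.14 (2.64 to 19.0) and 13 (5.62 to 25.6) peaks per Mb and those of cluster 2 had 2.85 (0.777 to 7.3) and 7.84 (3.91 to 14), with intervals that overlap between the clusters. The longest stretch of chromosome 9 without a peak centre in either list lay in cluster 2, at chr9:38511583-38953449. It was 442 kb long and held the gene bodies of 17 members from *Olfr911-ps1* to *Olfr930*. The stretch begins at the centre of a peak labelled Bmi1-/- in the region of *Olfr911-ps1*, so that member is not without a peak. The median of the 9917 gaps between peak centres on the chromosome was 5.56 kb. In cluster 1 the longest such stretch was 293 kb, with 6 members, and 5 gaps on the chromosome were longer. These genes, like the 5 that follow, were singled out after the values were seen. The 5 other protein-coding genes that overlap the spans, *Zfp317*, *Zfp560*, *Vwa5a*, *AW551984* and *Tmem225*, had no promoter peak in either list either. *Zfp560*, at chr9:20345136-20385177 on the minus strand, only reaches into cluster 1, and its TSS lies beyond the right edge. Counted by gene region, *Zfp317* held 1 peak labelled Bmi1-/- and *Zfp560* held 1 labelled WT.

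**Figure D3:**
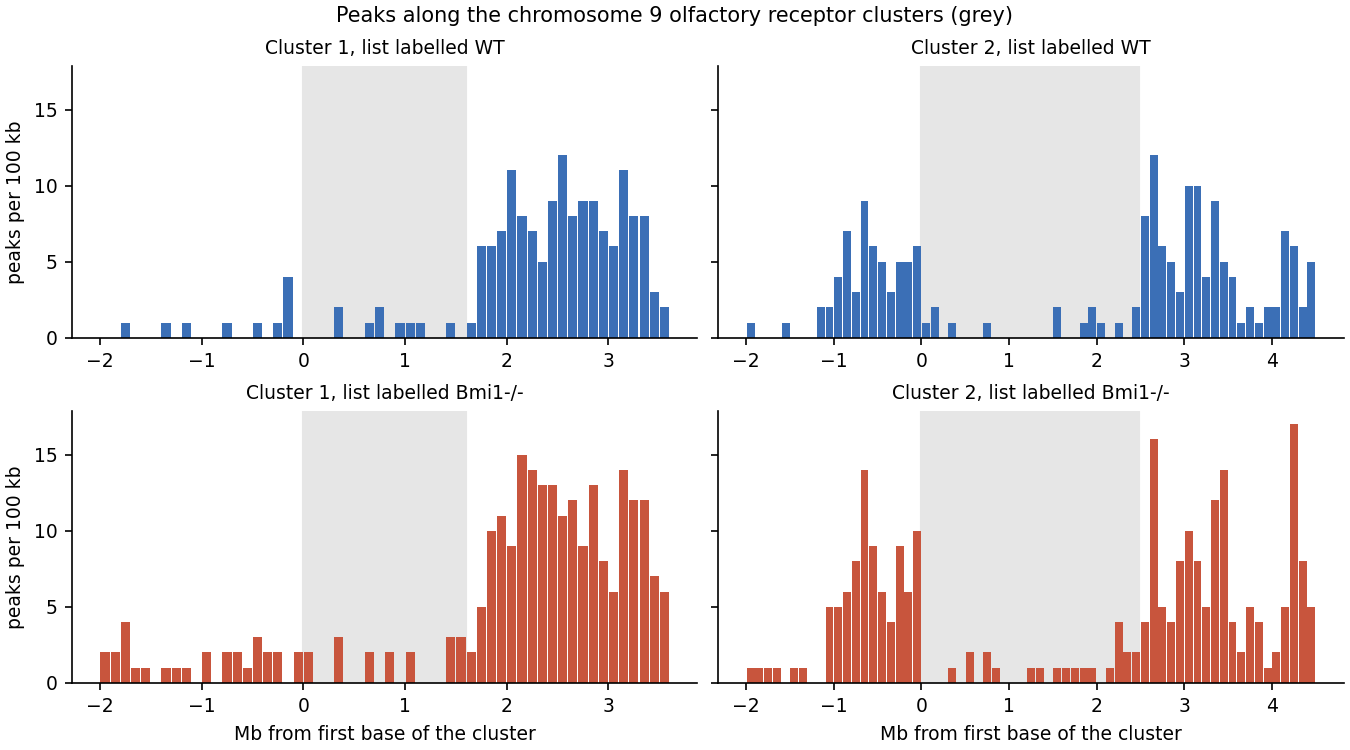
Peaks per 100 kb (y axis) along both clusters and 2 Mb on each side, with the distance in Mb from the first base of the cluster (x axis). The grey spans of the clusters held 9 and 13 peaks in the WT-labelled list (blue) and 17 and 21 in the list labelled Bmi1-/- (red). Of the bins that start within the spans, 9 of 16 and 15 of 25 are empty in the former list and 9 of 16 and 10 of 25 in the latter.

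Counted by gene, 2 of the 132 members had a promoter peak in the WT-labelled list (1.52%, exact binomial interval 0.184 to 5.37%). The list labelled Bmi1-/- had one at 10 members (7.58%, 3.69 to 13.5%). Over all protein-coding genes these shares were 59.1% and 68.2%, and over the 1078 other protein-coding genes of chromosome 9 they were 67.9% and 80.7%. Both lists marked the same 2 members, *Olfr849* and *Olfr872* (1.52%), where 53.0% of all genes were marked in both. The list labelled WT alone marked 0 members, which allows a share of up to 2.76%, against 6.1% of all genes. The list labelled Bmi1-/- alone marked 8 (6.06%, 2.65 to 11.6%), against 15.2% of all genes, so the share of members marked in that list alone was below the background. That share is limited by the few members marked at all. Of the 10 members marked in that list, 8 were marked there alone, against 3342 of 14960 among all genes. Among the members marked there alone, *Olfr149*, *Olfr971*, *Olfr975* and *Olfr981* were marked only by a peak centred in their coding exon. Neither list marked 122 members (92.4%), against 25.7% of all genes. The share was also high in the other chemoreceptor families, with 84.35% of olfactory receptors on other chromosomes and 93.0% of vomeronasal receptors. With the whole regions, 9 and 20 members held a peak (6.82% and 15.2%), against 73.1% and 78.7% of all genes, and 105 (79.5%) held none in either list, against 17.2%. A shared peak centre can count for more than 1 member, since neighbouring regions overlap, and 3 peaks of the list labelled Bmi1-/- lay in the regions of 2 members.

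The first and last genes of the clusters, *Olfr24*, *Olfr18*, *Olfr160* and *Olfr986*, were among the 105 members without a peak. Those with the longest regions were *Olfr943* with 36047 bp, *Olfr18* with 33943 bp and *Olfr27* with 26942 bp. Of the other members, 24 held 1 peak when the lists were summed, *Olfr872* and *Olfr984* held 2, and *Olfr849* held 3.

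The peaks that were called at the olfactory receptors were of low to ordinary strength for their lists. In the WT-labelled list their −log10 p ranged from 3.06 to 5.49 with a median of 3.96, against a median of 4.34 and a maximum of 292 in the rest of chromosome 9. The 9 summits held 15 to 20 reads over the commonest background of 6.32 reads. In the list labelled Bmi1-/- the range was 2.41 to 5.89 with a median of 3.57, against a median of 4.18, and the 19 summits held 16 to 24 reads over 8.04. A q-value below 0.05 was reached by 2 of 9 peaks (22.2%, 2.81 to 60.01%) against 53.4% in the rest of the chromosome, and by 9 of 19 (47.4%, 24.4 to 71.1%) against 63.0%. A −log10 q of at least 5 was reached by 0 of 9 and 0 of 19 peaks, which allows shares of up to 33.6% and 17.6%, and by 1.90% and 4.64% of the peaks in the rest of the chromosome, so a difference in the share of strong peaks was not detectable.

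The peaks at the members seldom met between the lists. Of the 9 peaks labelled WT, 1 overlapped a peak labelled Bmi1-/- by at least 1 bp (11.1%, 0.281 to 48.2%), against 24.8% of all peaks of that list. Of the 19 peaks labelled Bmi1-/-, 1 overlapped (5.26%, 0.133 to 26.0%), against 18.5%. In the rest of chromosome 9, the peaks that were no stronger than the strongest at a member overlapped in 19.7% and 12.8% of cases. Both values lie within the wide intervals of the members.

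The single overlap was upstream of *Olfr872*, in intergenic DNA. The peak labelled WT, chr9:20234995-20235357, was centred 1943 bp upstream of the TSS with 16 reads at its summit and a −log10 p of 3.50, and the peak labelled Bmi1-/-, chr9:20234835-20235122, 2140 bp upstream with 16 reads and 2.41. These stood at percentiles 27.0 and 2.1 of their lists and neither reached a q-value of 0.05. Annotated repeats made up 81.3% and 94.8% of their bases, and 54.1% and 55.8% of their 31-base words occurred again elsewhere in the genome. These were the highest shares of repeated words among the peaks at members, and how reads with several matching places were treated is not given in the sources used here.

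The shared stretch and the bases around the strongest summits outside exons are shown, since the overlap and the strongest calls rest on them. All lines are on the plus strand of GRCm38, 5′ to 3′, with CpG in capitals. *Olfr985*, *Olfr911-ps1*, *Olfr944* and *Olfr984* gave windows of 200 bases, and the last 3 share the highest −log10 p of their list.
*Olfr872* shared stretch, chr9:20234995-20235122: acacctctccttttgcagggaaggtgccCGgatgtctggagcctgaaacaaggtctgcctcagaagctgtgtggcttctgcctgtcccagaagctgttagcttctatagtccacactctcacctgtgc
*Olfr985* upstream peak, WT-labelled list, chr9:40137044-40137243: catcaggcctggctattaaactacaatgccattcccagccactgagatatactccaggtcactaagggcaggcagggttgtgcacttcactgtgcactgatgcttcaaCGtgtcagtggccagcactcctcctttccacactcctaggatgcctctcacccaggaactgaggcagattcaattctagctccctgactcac
*Olfr911-ps1* upstream peak, list labelled Bmi1-/-, chr9:38511479-38511678: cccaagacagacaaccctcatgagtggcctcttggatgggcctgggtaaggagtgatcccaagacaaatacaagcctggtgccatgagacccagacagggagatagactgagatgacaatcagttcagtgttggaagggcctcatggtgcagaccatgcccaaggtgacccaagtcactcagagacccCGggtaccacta
*Olfr944* intron peak, list labelled Bmi1-/-, chr9:39215578-39215777: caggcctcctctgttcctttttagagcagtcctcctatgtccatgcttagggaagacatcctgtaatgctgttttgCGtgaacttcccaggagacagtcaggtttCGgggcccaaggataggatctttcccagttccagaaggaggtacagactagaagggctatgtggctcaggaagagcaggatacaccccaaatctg
*Olfr984* upstream peak, list labelled Bmi1-/-, chr9:40115506-40115705: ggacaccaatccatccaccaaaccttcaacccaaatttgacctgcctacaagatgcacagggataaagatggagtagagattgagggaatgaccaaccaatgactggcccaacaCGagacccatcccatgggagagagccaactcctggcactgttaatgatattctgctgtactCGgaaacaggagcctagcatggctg

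The shared stretch of *Olfr872* is 128 bases long with 1 CpG and 54.7% GC. The windows at *Olfr985*, *Olfr911-ps1*, *Olfr944* and *Olfr984* had 52.5%, 54.5%, 51.0% and 50% GC with 1, 1, 2 and 2 CpG. These values were above the 36.9% GC of the olfactory receptor regions as a whole. Over all peaks at members the median GC content was 51.8% in the WT-labelled list and 51.2% in the list labelled Bmi1-/-, close to 52.0% and 52.5% at the other peaks of the chromosome. The rest of the chromosome had 42.8% GC, so the step from the surrounding sequence to the peaks was larger in the clusters.

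*Olfr849*, in cluster 1, had the most peaks. The peak labelled WT, chr9:19437890-19438157, was centred 2242 bp upstream of the TSS with 19 reads and a −log10 p of 4.96. The peaks labelled Bmi1-/- were centred 2929 bp upstream with 23 reads and 5.39, and 1068 bp upstream with 17 reads and 2.77. The former lay 394 bp from the peak labelled WT without overlapping it, the shortest distance between non-overlapping peaks of the lists at any member. All 31-base words of the peak labelled WT were unique in the genome, and 2.78% of those of the stronger peak labelled Bmi1-/- were not.

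The strongest promoter peaks labelled Bmi1-/- were at *Olfr944* and *Olfr984* in cluster 2, each with 24 reads and a −log10 p of 5.89, at the 85.6th percentile of the list. The peak at *Olfr944* was in an intron, 1689 bp upstream of the nearest TSS, and that at *Olfr984* was intergenic, 1369 bp upstream. Neither had a counterpart in the WT-labelled list. The list labelled WT had its strongest peak 6869 bp upstream of *Olfr985*, outside the promoter window, with 20 reads and a −log10 p of 5.49. A peak labelled Bmi1-/- of 24 reads lay 9997 bp upstream of *Olfr911-ps1*, just inside the limit of 10 kb. *Olfr828* and *Olfr837*, the first by position among the 24 members with 1 peak, held it 8331 bp upstream with 20 reads in the list labelled Bmi1-/- and 9186 bp upstream with 15 reads in the WT-labelled list.

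**Figure D4:**
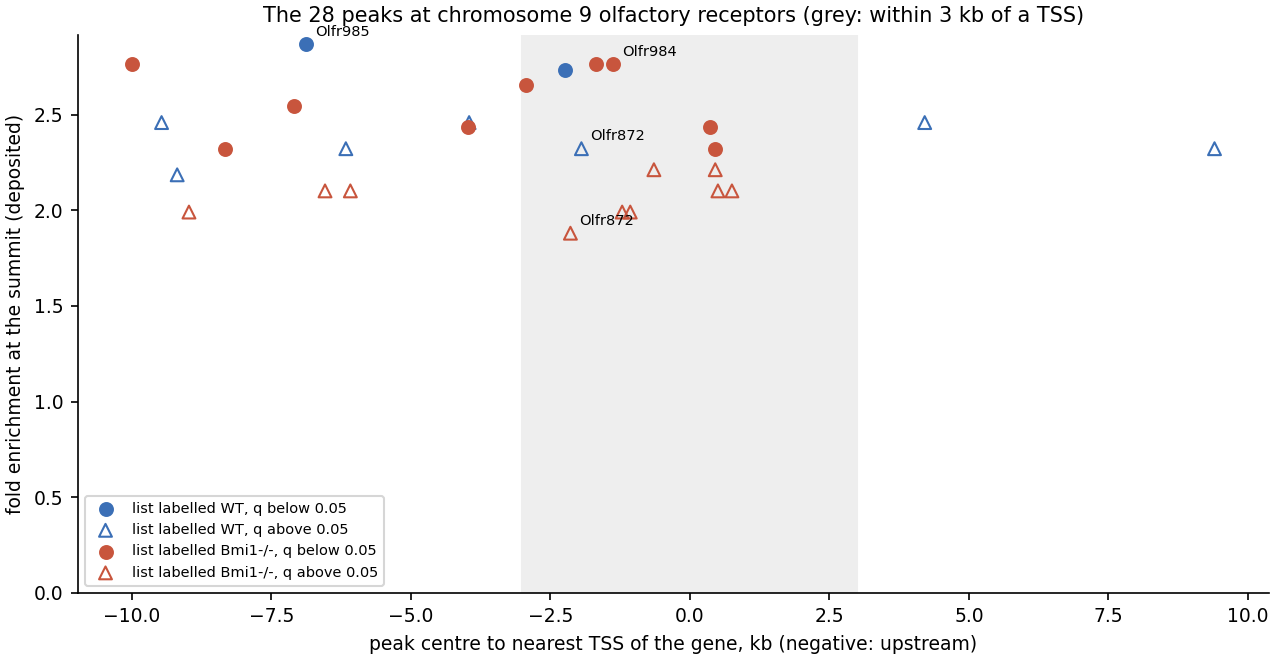
Deposited fold enrichment at the summit (y axis) against the distance of the peak centre to the nearest TSS of the gene in kb (x axis, negative is upstream) for the 9 peaks labelled WT (blue) and the 19 labelled Bmi1-/- (red). Filled circles have a q-value below 0.05, and of the peaks just downstream of a TSS, inside the grey window of 3 kb, all are from the list labelled Bmi1-/-.

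In the list labelled Bmi1-/-, 5 of the 19 peaks were centred in the coding exon of a receptor (26.3%, 9.15 to 51.2%), and in the WT-labelled list 0 of 9 were, which allows a share of up to 33.6%. Coding sequence made up 6.14% of the olfactory receptor regions. In the rest of chromosome 9, 6.72% and 6.54% of the peaks were centred in coding exons, which made up 1.67% of its length. The genes were *Olfr971* with 21 reads, *Olfr149* with 20, *Olfr984* with 19, and *Olfr975* and *Olfr981* with 18 each. The centres lay 357 to 754 bp downstream of the nearest TSS. *Olfr975* and *Olfr981* were chosen for mention after their values were seen, as were *Olfr985* and *Olfr911-ps1*. In *Olfr149*, *Olfr975*, *Olfr981* and *Olfr984* every 31-base word of the peak was unique in the genome, and in *Olfr971* 9.94% of the words were not. The peaks at *Olfr971* and *Olfr149* had a q-value below 0.05.

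Receptor genes are close relatives of each other, and reads that lie wholly in identical copies of a sequence cannot be placed. The paper's reads were paired and longer than 31 bases, so a repeated word does not by itself keep a read from being placed. In the olfactory receptor regions 20.6% of sampled 31-base words occurred elsewhere in the genome, against 9.07% in the regions of other protein-coding genes and 13.1% in the rest of the chromosome. Annotated repeats covered 41.5% of the regions against 31.8% of the rest. The part of these differences in the low peak density was not tested. By peak, 2 of 9 and 9 of 19 consisted of unique words only, and the median share of repeated words was 8.97% and 2.78%. Annotated repeats, whose copies can differ in sequence, made up a median of 54.3% of the bases of the members' peaks in the WT-labelled list against 7.98% at the other peaks of the chromosome, and 16.2% against 7.87% in the list labelled Bmi1-/-. More than 50% of the bases were repeats in 5 of the 9 and 7 of the 19 peaks.

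Between the lists, the number of peaks in the members' regions differed by 2.11 times, from 9 labelled WT to 19 labelled Bmi1-/- (interval 0.910 to 5.30), and in the rest of chromosome 9 by 1.29 times (1.24 to 1.34). For promoters the ratio was 6 (1.34 to 55.2), from 2 to 12 peaks, against 1.31 (1.22 to 1.42) for the promoters of other protein-coding genes of the chromosome. For regions the interval of the members includes the ratio of the rest. For promoters it begins at 1.34, just above the ratio of the other promoters, 1.31, and inside their interval. Olfactory receptors on other chromosomes had 91 and 130 promoter peaks, and vomeronasal receptors 15 and 17. By gene, 1.52% of the members had a promoter peak in the WT-labelled list, against 8.48% of olfactory receptors elsewhere. In the list labelled Bmi1-/- these shares were 7.58% and 10.7%. Of the members' 12 promoter peaks labelled Bmi1-/-, 5 were centred in coding exons. When the list labelled Bmi1-/- was limited to the same number of peaks as the other, 11 peaks remained in the regions and 7 in the promoters, against 9 and 2. Genotype, library and depth cannot be told apart.

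The genes on which olfactory receptor expression depends in the nose had promoter peaks more often than the receptors, as most genes did. Over all protein-coding genes 59.1% had a promoter peak in the WT-labelled list, 68.2% in the list labelled Bmi1-/- and 53.0% in both. Whether the regulators differ from all genes was not tested. Among 20 regulators of receptor choice and silencing, 15 had a promoter peak in the WT-labelled list and 18 in the list labelled Bmi1-/-, 14 in both. By the higher value of both lists, the strongest was at *Atf5*, a transcription factor of the unfolded protein response, with a −log10 p of 6.67 and 16.1. Next came *Cbx3*, which encodes a heterochromatin protein, with 14.4 and 15.5, and *Cbx5*, another heterochromatin protein, with 6.06 and 12.5. *Suv39h1* and *Ehmt1*, histone H3 lysine methyltransferases, followed with 5.49 and 12.4 and with 3.96 and 12.3, and *Lbr*, the lamin B receptor, with 6.47 and 10.2. In the WT-labelled list alone, *Bptf*, a subunit of a chromatin remodeller, was the next after *Cbx3* with 7.19. *Lhx2* had peaks in the WT-labelled list only and *Uncx* had none. These genes act in many cell types.

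Of 17 genes of olfactory signal transduction and receptor transport that were found in the annotation, 11 and 13 had a promoter peak, 10 in both. *Ric8b*, a guanine nucleotide exchange factor for the olfactory G protein, had the strongest by the higher value of both lists, with a −log10 p of 6.02 and 17.4, followed by *Gnb1*, a G protein beta subunit, with 6.37 and 8.69. *Reep1*, *Pde4a*, *Slc24a4* and *Pde1c* followed, with a highest −log10 p of 7.58, 7.49, 7.07 and 6.41 over the lists. In the WT-labelled list alone, *Pde4a* was the strongest with 7.49. *Omp*, *Cnga2* and *Gng13*, the olfactory marker protein, a subunit of the olfactory cyclic nucleotide-gated channel and a G protein gamma subunit, had none in either list. Of 15 markers of mature olfactory sensory neurons, 7 and 9 had a promoter peak and 6 had one in both. *Omp*, *Cnga2*, *Gng13*, *Slc17a6* and *Gfy* had none, while *Ncam2*, a cell adhesion molecule, had a −log10 p of 6.61 and 10.1. The shares of all genes with a promoter peak, 59.1% and 68.2%, and with one in both lists, 53.0%, are the base against which these counts stand.

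The tissue was checked against its own markers. Of 12 hair cell markers, 8 and 9 had a promoter peak and 6 had one in both, with a −log10 p of 9.04 and 14.7 at *Myo6* and of 6.87 and 5.43 at *Espn*, an actin-bundling protein of the hair bundle. Of 12 supporting cell markers, 9 and 10 had a promoter peak and 8 had one in both, with 4.60 and 12.5 at *Gjb2*, a gap junction protein, and 7.19 and 9.91 at *Sox2*, a transcription factor of the sensory progenitors. Over all genes 59.1% and 68.2% had a promoter peak and 53.0% had one in both, so the counts of hair cell markers were close to the background, and the markers tell little of the tissue by their counts. The strongest peak at an olfactory receptor promoter had a −log10 p of 4.96 in the WT-labelled list and 5.89 in the list labelled Bmi1-/-. Of the 12 hair cell markers, 3 and 2 had a stronger promoter peak than these, and of the 12 supporting cell markers, 4 and 5. *Atoh1*, a transcription factor of hair cell development, stood below them with 4.45 and 3.995, and *Tmc1*, a subunit of the mechanotransduction channel, had no promoter peak in either list. *Atoh1*, *Tmc1* and *Bptf* were chosen for mention after their values were seen.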

How the data were processed

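Peaks of 2 ATAC-seq libraries, 1 per genotype, were analysed, and samples were grouped by the genotype in the GEO labels. Reads were trimmed by the authors and aligned by BWA-MEM, and each library had its own MACS2 call. The build, mm10, is from the submitters' processing notes, and the MACS2 version and options are not given in the sources used here. The deposited fold enrichment divides the reads piled up at a summit by the local background, after 1 is added to both, and so is a ratio. The −log10 p and −log10 q were deposited for that pileup under a Poisson model, and the deposited score was not used. The other columns used hold positions.

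Peaks outside the autosomes, X and Y were left out. A peak was placed by its centre. Genes were from GENCODE vM21, and assembly gaps were left out of lengths. Reads at the summit were solved from these deposited values, with a whole number within a tolerance of 0.002 for 100% of the peaks on chromosome 9. Shares have exact binomial, densities exact Poisson and ratios exact conditional 95% intervals, which cover counting error only. No test between genotypes was possible and no p-value between them is given. Repeats were read from the soft-masked genome, and 31-base words were searched on both strands of the assembled chromosomes. Promoter sequences were RefSeq's for GRCm38. Python 3.11.15 with numpy 2.4.6, pandas 2.3.3, scipy 1.17.1 and matplotlib 3.10.9 was used, and the counting steps were tested on simulated data.

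The members, gene lists, windows and alternatives were chosen with earlier results of these data known. Named genes were those with overlapping promoter peaks, the 5 strongest promoter peaks per list, the 5 members with the most peaks, the ends of each cluster, the 3 longest regions without a peak, and at most 6 genes per gene list. Of the members with a promoter peak labelled WT there were only 2. Of 18 listed genes of olfactory signal transduction, 1 was not found in the annotation.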

Additional observations from a re-analysis of the deposited data

How the results depend on the processing

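In every alternative, all 44 density ratios against other parts of the chromosome stayed below 1, and the highest was 0.305, in the list labelled Bmi1-/- with promoters within 1 kb of a TSS. Of 92 alternative values 65 stayed within the interval of the reported value or, for counts, within 1.5 times of it. With peaks of q of at most 0.05, the region density ratio labelled WT was 0.0511, both overlap shares were 0 and the genes marked in the list labelled Bmi1-/- alone fell to 4. With a −log10 q of at least 5, the 4 density ratios, both shares of genes and that count were 0, on 82 and 258 peaks in the rest of the chromosome, so that the upper bounds of the ratios reached 5.23, and no overlap share could be given. With both lists at an equal number of peaks, both overlap shares were 0, 1 gene (*Olfr872*) was marked in the WT-labelled list alone and 5 in the list labelled Bmi1-/- alone. Both overlap shares were also 0 with the gene body alone and with a reciprocal overlap of 50%. Within 1 kb of a TSS, the promoter density ratio and share of genes labelled WT were 0. From 1 kb upstream to 100 bp downstream they were 0 as well, and in the list labelled Bmi1-/- the density ratio was 0.0872, the share of genes 0.758% and the genes marked alone 1. Against other genes' promoters, the promoter density ratio labelled Bmi1-/- was 0.0964. Placement by summit, RefSeq genes (130 members), chromosome length with gaps and leaving out the member near another gene's TSS moved no value beyond these limits.

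No paired analysis was possible because each genotype has 1 library. Depth is known only from the local background. With 1 library per genotype, a difference between the genotypes could not be read from the counts, whatever their intervals. This holds for the 9 and 19 peaks in regions and for the 2 and 12 in promoters.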
